A study of Mus musculus with 8 samples.

Results

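Expression is described here for 10 genes of the p53 response, Trp53, Cdkn1a, Mdm2, Bax, Bbc3, Ccng1, Phlda3, Zmat3, Trp53inp1 and Eda2r, in mouse splenic B cells. They were chosen by symbol, and all 10 were found in the count matrices. Single-cell RNA was counted in 8 libraries, which form 4 groups of 2: total cells of control mice (control total), total cells of cKO mice (cKO total), and the YFP+ cells of each (control YFP+, cKO YFP+). The cKO mice were Eif3e fl/fl Cγ1Cre Rosa26-YFP LSL. The controls carried Cγ1Cre and Rosa26-YFP LSL without the floxed Eif3e allele, so that the Cre allele and the reporter were shared by all groups. Activated B cells express Cγ1Cre from the γ1 heavy chain locus, and YFP marks a cell in which Cre has acted, or a descendant of one. All mice were 2 months old, each library pooled cells of 2 to 3 mice, and the replicate number is the batch number of the labels, shared by all 4 groups. The labels give spleen as the tissue, although the harvest described for these samples names lymph nodes too. Total libraries held sorted live cells of any type, while YFP+ libraries held cells sorted for the reporter. The question put to the data was whether the p53 response genes differed between cKO and control B cell subsets, and between YFP+ cells and total splenocytes.

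p53, the product of Trp53, is a transcription factor that is kept low because Mdm2, a ubiquitin ligase, marks it for degradation. Stress on DNA, on ribosome production or on other parts of the cell frees p53 from Mdm2, and the stabilised protein binds response elements in DNA and raises the transcription of its targets, Mdm2 among them. Because this control acts mainly on the protein, Trp53 RNA need not follow p53 activity. Germinal centre B cells are known to restrain the response through the repressor Bcl6 while they proliferate and edit their immunoglobulin genes.

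The windows around the transcription starts of 4 members are printed here because these members differed in the results: Cdkn1a, Ccng1 and Phlda3 were higher in cKO YFP+ cells, and Mdm2, the best known p53 target among the regulators, was not called. Each window runs from 250 bases before to 50 bases after a RefSeq start on GRCm38.p6 and is written 5′ to 3′ on the strand of the gene. Capitals mark exact matches to the decamer consensus of the p53 response element, which reads the same on both strands. The Cdkn1a window is chr17:29090729-29091028 on the plus strand, and its 2 matches begin 73 and 51 bases before the start with 12 bases between them. A second Cdkn1a window, at chr17:29093519-29093818 on the same strand, holds no exact match and is not printed. The Ccng1 window is chr11:40755237-40755536 on the minus strand, and its match begins 185 bases before the start. The Mdm2 window is chr10:117710709-117711008 on the minus strand, and its match begins 186 bases before the start. The Phlda3 window is chr1:135765835-135766134 on the plus strand and holds no exact match.
Cdkn1a: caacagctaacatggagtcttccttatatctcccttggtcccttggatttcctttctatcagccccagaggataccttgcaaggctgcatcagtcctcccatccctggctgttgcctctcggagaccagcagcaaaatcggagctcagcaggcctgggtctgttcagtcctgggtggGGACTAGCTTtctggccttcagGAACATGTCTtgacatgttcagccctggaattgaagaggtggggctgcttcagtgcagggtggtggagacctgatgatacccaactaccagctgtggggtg
Ccng1: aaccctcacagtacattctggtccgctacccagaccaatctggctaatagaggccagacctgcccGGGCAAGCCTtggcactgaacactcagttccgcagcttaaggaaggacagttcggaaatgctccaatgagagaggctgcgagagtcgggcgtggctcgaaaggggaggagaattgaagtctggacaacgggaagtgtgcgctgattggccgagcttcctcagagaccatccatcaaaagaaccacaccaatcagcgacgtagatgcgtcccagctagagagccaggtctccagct
Mdm2: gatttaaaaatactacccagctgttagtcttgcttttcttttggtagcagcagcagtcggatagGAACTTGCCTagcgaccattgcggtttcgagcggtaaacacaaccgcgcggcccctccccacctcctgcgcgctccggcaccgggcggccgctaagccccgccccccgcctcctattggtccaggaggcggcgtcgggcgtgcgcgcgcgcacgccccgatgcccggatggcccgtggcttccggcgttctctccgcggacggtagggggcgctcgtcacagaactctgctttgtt
Phlda3: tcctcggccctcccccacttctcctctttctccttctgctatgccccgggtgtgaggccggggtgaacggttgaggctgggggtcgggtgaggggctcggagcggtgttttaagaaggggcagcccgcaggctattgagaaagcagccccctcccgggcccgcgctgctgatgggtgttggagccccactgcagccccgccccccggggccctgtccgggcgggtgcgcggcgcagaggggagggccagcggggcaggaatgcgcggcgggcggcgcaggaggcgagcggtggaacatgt

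In all, 8 members had such windows, 11 windows together, since Bbc3 had 3 and Cdkn1a had 2. Exact decamers were found in the windows of 5 members, the other two being Bax (201 bases before the start) and Trp53 (75 bases before the start). Of the 32851 RefSeq windows of 300 bases, 8.36% held a decamer, and 24 windows (0.0731%) held 2 decamers at most 13 bases apart, as the Cdkn1a window did. A match of letters is a description of the sequence and was not read as a binding site. By the GENCODE annotation of the same build, Cdkn1a (chr17:29090976-29100727) overlaps AC167363.2 on the opposite strand, and Bax (chr7:45461697-45466898) overlaps Gm45808 on its own strand. The sources used here do not say how strand and such overlaps were counted, so reads of Cdkn1a and AC167363.2 may not have been told apart.

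After filtering, 83704 cells remained, and libraries held from 71868375 to 105099466 UMIs (unique molecular identifiers, counted as RNA molecules). B-lineage cells were clustered without the members and named from marker lists, so that every name is read as "like". The pre-GCB-like class, activated B cells with Myc, Irf4, Egr2, Egr3 and Ccnd2 among its markers, had 342 and 339 cells in the control YFP+ libraries (replicates 1 and 2) and 1478 and 1187 in those of cKO YFP+, while its total libraries had 389 and 529 cells for control and 642 and 555 for cKO. It was made of cluster 4 and cluster 15, and cluster 15 supplied 34.6% of its cells in cKO YFP+ and 27.3% in control YFP+, but 9.04% and 9.44% in the total libraries of control and cKO. Levels are given as CPM, counts per 1e6 UMIs of the summed class. Eif3e, the targeted gene, was at 227 and 267 CPM over all cells of the control YFP+ libraries and at 235 and 280 CPM over those of cKO YFP+, so it was not lower in the cKO sort as a whole. It stood in the pre-GCB-like class at 277 and 279 CPM in control YFP+ and at 165 and 200 CPM in cKO YFP+ (log2 difference −0.54, edgeR adjusted p = 0.119, and 0.000676 with the replicate number as a block). In cluster 15 it was 269 and 276 CPM in control YFP+ and 124 and 145 CPM in cKO YFP+ (−1.01, edgeR adjusted p = 0.00371), and in cluster 4 it was 289 and 283 CPM against 251 and 306 CPM (0.06, edgeR adjusted p = 0.988). The sources used here do not place the floxed part of Eif3e relative to the counted 3′ ends, so Eif3e counts could miss a deletion.

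Within YFP+ pre-GCB-like cells, 4 of the 9 members tested rose in cKO: Phlda3, Cdkn1a, Ccng1 and Bbc3, with log2 differences of 1.41 to 3.71. Trp53, Mdm2 and Trp53inp1 were not called, with differences of −0.15 to 0.22, and Eda2r was too low to test. In the same comparison 8.79% of the 11996 genes tested were called (edgeR quasi-likelihood test, adjusted p under 0.05), and 483 of them rose. With the replicate number, which marks a shared batch, as a block, Bax and Zmat3 rose too, which made 6 of 9 members against 24.2% of all genes. With the unnamed cluster 14 added, 5 of 10 were called against 9.31%, and Eda2r, which passed the filter then through the cKO libraries alone, was not (3.71, edgeR adjusted p = 0.0837). The plot of member levels by library shows the 8 values of each gene.

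**Figure D1:**
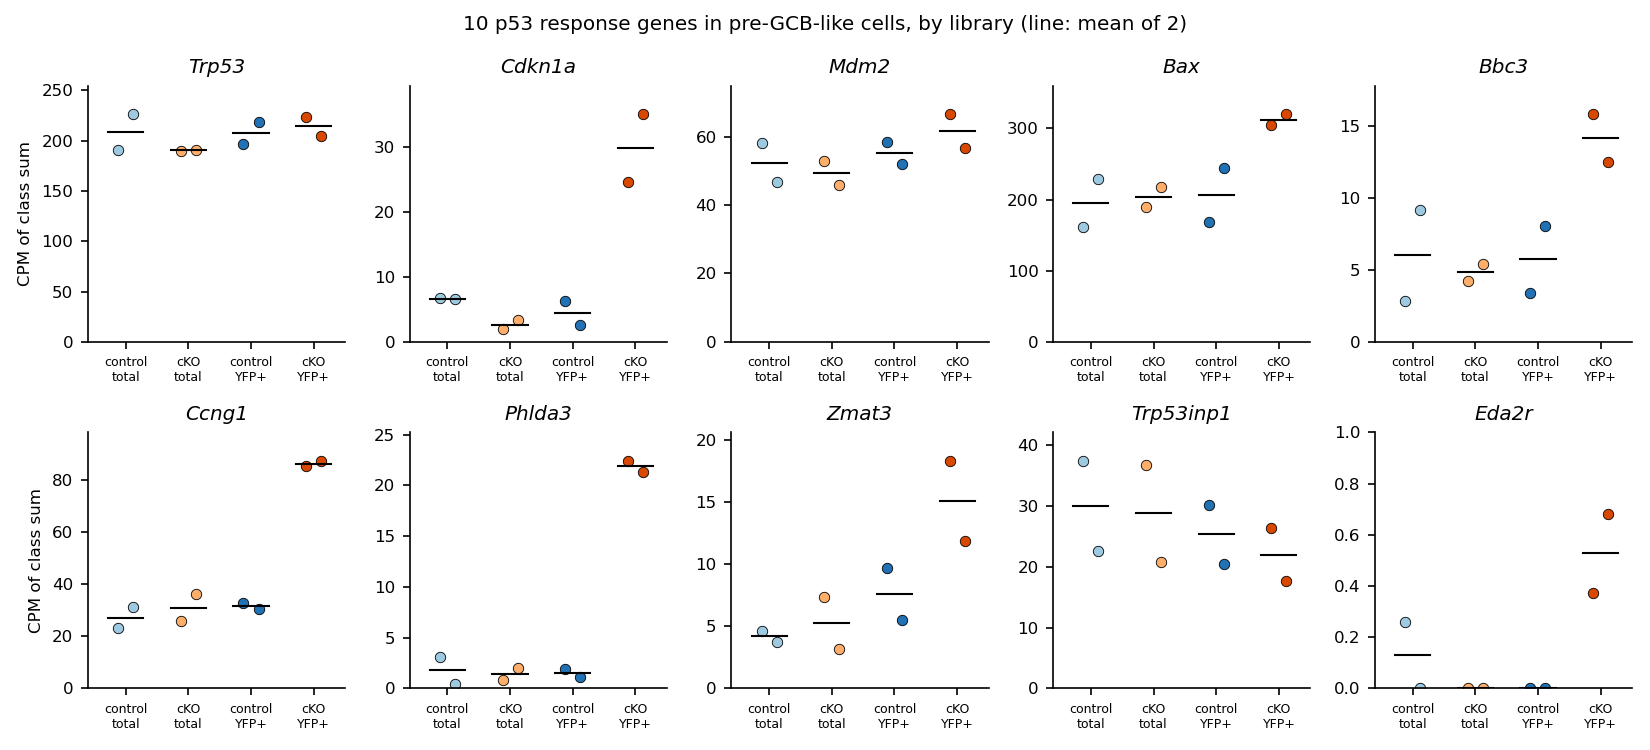
Levels of the 10 p53 response genes in the pre-GCB-like class, in CPM on linear axes that start at 0, with 1 point per library, 2 libraries in each of the 4 groups and a line at their mean. For Phlda3, Cdkn1a, Ccng1, Bbc3, Bax and Zmat3 both cKO YFP+ points lie above the 6 others, while the groups overlap for Trp53 and Trp53inp1.

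Of the regulators, Trp53 was at 196 and 218 CPM in control YFP+ and at 224 and 205 CPM in cKO YFP+, a log2 difference of 0.11 ± 0.19 (SE, n = 2 libraries a group, edgeR adjusted p = 0.801). The groups overlapped. Mdm2 was at 58.4 and 52.0 CPM in control YFP+ and at 66.5 and 56.8 CPM in cKO YFP+ (0.22 ± 0.18, edgeR adjusted p = 0.522). Its groups overlapped as well.

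Cdkn1a encodes p21, an inhibitor of cyclin-dependent kinases that arrests the cell cycle. It was at 6.33 and 2.57 CPM in control YFP+ (26 and 7 UMIs) and at 24.6 and 35.0 CPM in cKO YFP+ (595 and 666 UMIs), higher by 2.71 ± 0.34 on the log2 scale (edgeR adjusted p = 0.000995). Both cKO YFP+ libraries were above the 6 others, and the log2 ratio within batches was 1.96 and 3.77. Ccng1, which encodes cyclin G1, was at 32.6 and 30.4 CPM in control YFP+ and at 85.2 and 87.3 CPM in cKO YFP+ (1.51 ± 0.18, edgeR adjusted p = 0.000815). Its 2 cKO YFP+ libraries nearly coincided, and the 6 others stayed between 23.0 and 36.1 CPM.

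Of the members that promote cell death, Bbc3, the gene of PUMA, was at 3.41 and 8.06 CPM in control YFP+ and at 15.8 and 12.5 CPM in cKO YFP+ (1.41 ± 0.35, edgeR adjusted p = 0.0295). The call was lost without control YFP+ replicate 1, where Bbc3 differed by 0.80 (edgeR adjusted p = 0.114), and with marked doublets removed (1.25, edgeR adjusted p = 0.0658). It was lost too at cluster resolution 1.5 (1.34, edgeR adjusted p = 0.0507) and with all 8 libraries in the fit (1.36, edgeR adjusted p = 0.119). Bax, which forms pores in the outer mitochondrial membrane, was at 168 and 245 CPM in control YFP+ and at 305 and 320 CPM in cKO YFP+ (0.65 ± 0.23, edgeR adjusted p = 0.116, and 0.000169 with the block). The groups did not overlap, but the 2 control libraries lay far apart, as did those of control total (161 and 229 CPM). Eda2r, a receptor of the tumour necrosis factor family, was counted 9 and 13 times in cKO YFP+ and 0 times in both control YFP+ libraries, and was too low for the test. The 0 allows up to 3 UMIs, 0.730 and 1.10 CPM, in the control YFP+ libraries, which is above the 0.373 and 0.682 CPM of cKO YFP+, so that no difference was detectable at this depth.

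Phlda3, whose product competes with Akt for membrane lipids, was at 1.95 and 1.10 CPM in control YFP+ (8 and 3 UMIs) and at 22.4 and 21.3 CPM in cKO YFP+ (541 and 406 UMIs). At 3.71 ± 0.31 on the log2 scale (edgeR adjusted p = 8.2e-05) it differed most among the members. Zmat3, an RNA-binding protein that acts in splicing, was at 9.74 and 5.50 CPM in control YFP+ and at 18.3 and 11.9 CPM in cKO YFP+ (1.00 ± 0.30, edgeR adjusted p = 0.0628, and 0.000512 with the block). Trp53inp1, a nuclear protein that promotes p53 phosphorylation and autophagy, was at 30.2 and 20.5 CPM in control YFP+ and at 26.4 and 17.6 CPM in cKO YFP+ (−0.15 ± 0.24, edgeR adjusted p = 0.765). The genotypes overlapped, and the library of batch 1 was above that of batch 2 in all 4 groups.

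The pre-GCB-like class held 2 clusters of unlike depth, and the members were therefore read in each, a split chosen after the clusters were seen. Cluster 15 was led by Fabp5, Snhg15, Tmem176b and Timd2 with histone genes and Top2a, and its cells had median counts of 22809 and 16649 UMIs in control YFP+ and 28989 and 25511 UMIs in cKO YFP+. Cluster 4 was led by Mdn1, Mreg, Bcl2a1d and Il4i1, with medians of 5556 and 4102 UMIs in control YFP+ and 6993 and 7548 UMIs in cKO YFP+. Cluster 15 had 102 and 84 control cells and 499 and 422 cKO cells in the YFP+ sort, and cluster 4 had 240 and 255 control cells and 979 and 765 cKO cells.

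In cluster 15, 5 of 9 members tested rose in cKO YFP+ cells, where 20.2% of the 11314 genes tested were called in either direction. Phlda3 went from 1.63 and 2.09 CPM in control YFP+ to 32.4 and 31.2 CPM in cKO YFP+ (3.98 ± 0.31, edgeR adjusted p = 0.000235). Cdkn1a went from 4.90 and 2.79 CPM to 36.0 and 51.3 CPM (3.36 ± 0.34, edgeR adjusted p = 0.000734). For these genes the controls rested on 3 to 12 UMIs a library, whereas the cKO YFP+ libraries had 392 to 644. Bbc3 went from 2.04 and 2.79 CPM to 20.1 and 14.7 CPM (2.79 ± 0.38, edgeR adjusted p = 0.00203). Ccng1 went from 32.2 and 30.7 CPM to 110 and 112 CPM (1.82 ± 0.16, edgeR adjusted p = 0.000453), and Bax from 149 and 205 CPM to 360 and 357 CPM (1.03 ± 0.18, edgeR adjusted p = 0.00705). In each of the 5 genes both cKO YFP+ libraries were above the 6 others. Zmat3 was 11.8 and 7.67 CPM against 24.2 and 14.8 CPM (0.95 ± 0.34, edgeR adjusted p = 0.0825, and 0.00391 with the block, which made 6 of 9 members against 30.3%). Trp53 (0.17 ± 0.14, edgeR adjusted p = 0.443), Mdm2 (0.11 ± 0.15, edgeR adjusted p = 0.653) and Trp53inp1 (−0.43 ± 0.23, edgeR adjusted p = 0.222) did not pass the test.

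In cluster 4, 0 of 8 members tested were called by edgeR, 0 had an unadjusted p under 0.05, and 0.775% of 10189 genes were called. Cdkn1a was at 8.45 and 2.32 CPM in control YFP+ and at 0.644 and 3.38 CPM in cKO YFP+, Ccng1 at 33.2 and 30.1 CPM and at 32.7 and 39.4 CPM, and Phlda3 at 2.41 and 0 CPM and at 1.42 and 2.15 CPM. Each overlapped between the genotypes.

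**Figure D2:**
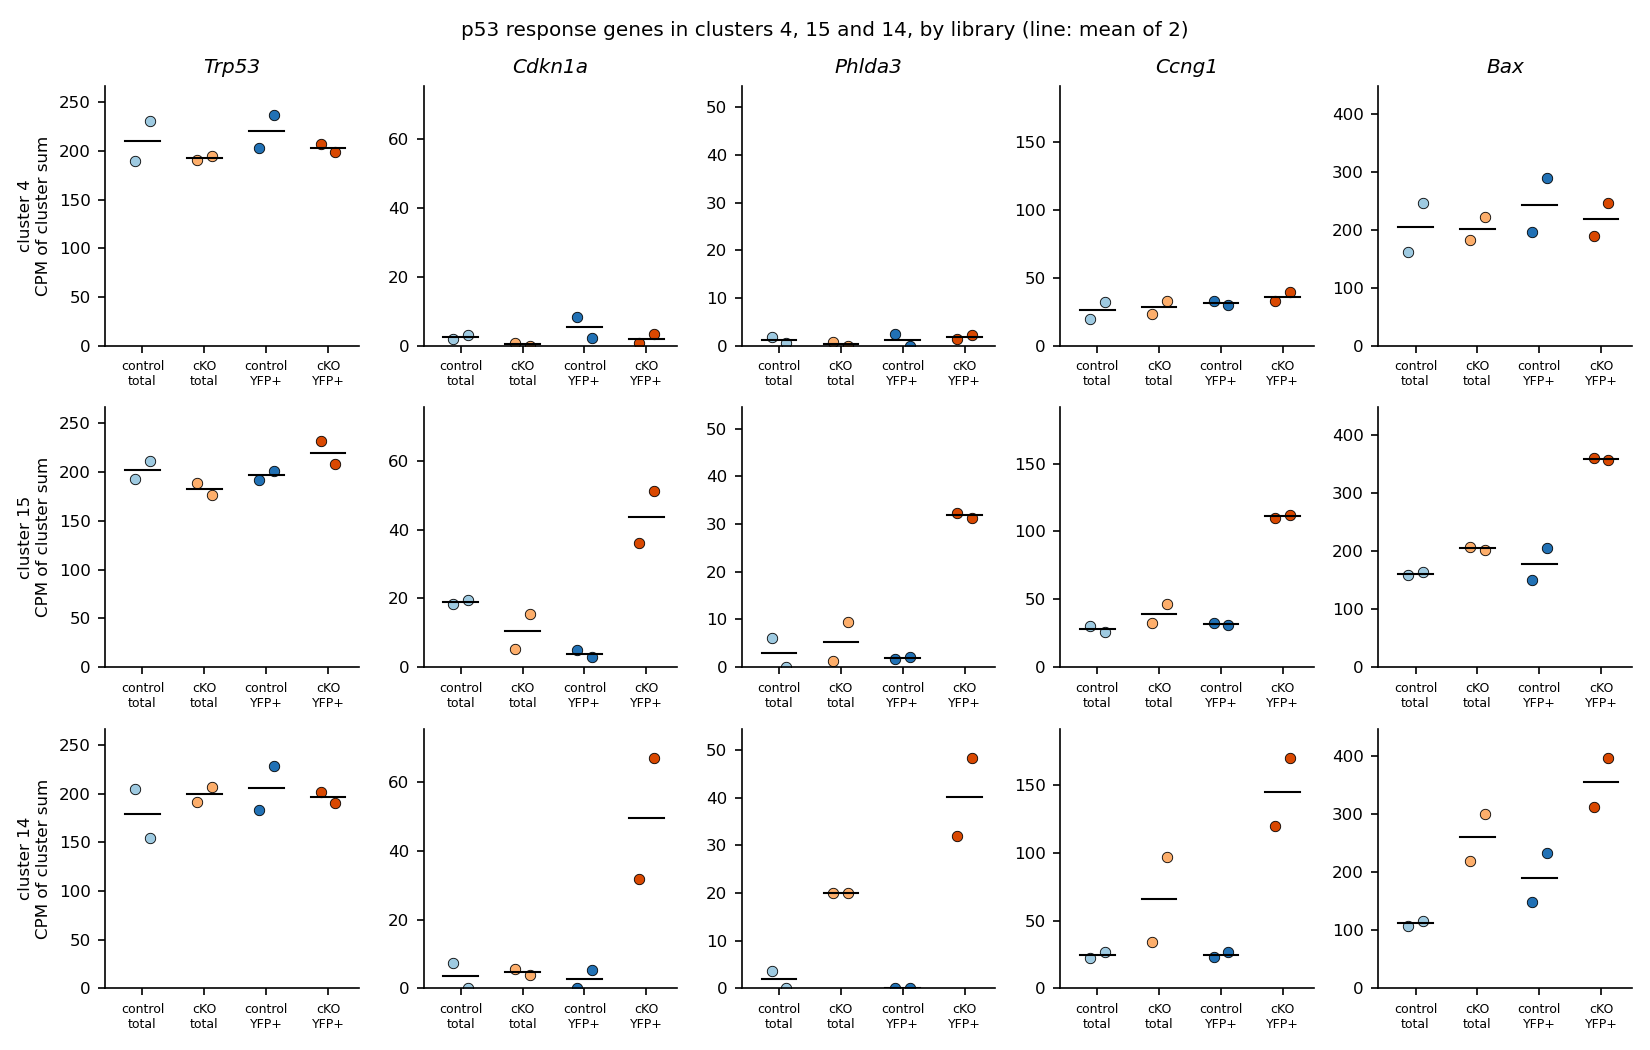
Levels of Trp53, Cdkn1a, Phlda3, Ccng1 and Bax (columns) in cluster 4, cluster 15 and the unnamed cluster 14 (rows), in CPM on linear axes that start at 0, with 1 point per library, a line at the mean of 2, and the 4 groups along the horizontal axis. In cluster 15 both cKO YFP+ points of Cdkn1a, Phlda3, Ccng1 and Bax lie above the 6 others, and in cluster 4 the YFP+ points of these genes overlap between the genotypes.

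The difference between the clusters was tested directly, as the cKO minus control change in cluster 15 less that in cluster 4, with each library as a block. It was positive and called for Cdkn1a (4.72 ± 0.65, edgeR adjusted p = 1.64e-11), Bbc3 (2.92 ± 0.58, edgeR adjusted p = 7.69e-06), Ccng1 (1.57 ± 0.30, edgeR adjusted p = 8.73e-06), Bax (1.12 ± 0.27, edgeR adjusted p = 0.000706) and Phlda3 (3.59 ± 1.14, edgeR adjusted p = 0.013). These are 5 of 9 members against 14.3% of 11107 genes called in either direction. Both clusters were summed in the same 2 libraries a genotype. The p-values therefore rest largely on a spread estimated over all genes, and reflect that between pools of mice poorly. Phlda3 passed the filter on low counts in this comparison only through cKO YFP+ cells of cluster 15, so its value is a description. Of the 8 others, 4 were called. Without cKO YFP+ replicate 1, or without control YFP+ replicate 2, the count was 3, against 6.36% and 5.45% of genes, Bax being lost in both, Phlda3 in the first and Bbc3 in the second. Without control YFP+ replicate 1 the Phlda3 difference was 0.88 (edgeR adjusted p = 0.861), where the remaining control library had 0 Phlda3 UMIs in cluster 4.

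Other measures moved with the same comparison. In cluster 15 the summed level of 7 monocyte or macrophage markers was 27.9 to 46.5 CPM in control YFP+ and 7.65 to 12.6 CPM in cKO YFP+, that of 8 plasma cell markers was 943 to 1229 CPM and 382 to 534 CPM, and the share of cells marked as doublets was 20.6% to 31.0% and 7.62% to 8.29%. Their part in the results was not tested. With marked doublets removed the difference between the clusters was larger for Cdkn1a (5.15), Phlda3 (4.07) and Ccng1 (1.65) and smaller for Bbc3 (2.84) and Bax (0.99), and these 5 were called (edgeR adjusted p from 5.21e-12 for Cdkn1a to 0.00715 for Phlda3). Median mitochondrial shares in cluster 15 were 2.40% to 2.65% in control YFP+ and 1.61% to 1.94% in cKO YFP+.

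The targets were also read cell by cell, with the genes chosen after their summed levels were known. After each cell was thinned to 5000 UMIs, Cdkn1a was seen in 8.30% and 10.6% of cluster 15 cells of cKO YFP+ and in 3% and 1.25% of those of control YFP+. Without thinning the shares were 22.2% and 22%, and 5.88% and 2.38%. Cells with fewer UMIs were left out, which kept 494 of 499 and 414 of 422 cluster 15 cells of cKO YFP+ and 100 of 102 and 80 of 84 of control YFP+. In naive B-like cells the thinned shares describe the deeper cells alone, 108 of 2576 in control YFP+ replicate 2 and 318 of 1956 in replicate 1, against 3166 of 5821 and 5137 of 7330 in cKO YFP+. In naive B-like cells, median 2726 to 6039 UMIs a library, the thinned share was at most 1.2% in all 8 libraries, and free RNA was not measured apart from the cells' own. Phlda3 was seen after thinning in 12.1% and 10.6% of cluster 15 cells of cKO YFP+, in 1% and 0% of those of control YFP+ (0 of 80 cells, exact 95% interval up to 4.51%), and in at most 0.379% of naive B-like cells in any library.

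Cells in which at least 2 of 5 targets (Cdkn1a, Bbc3, Ccng1, Phlda3 and Zmat3) were seen made up 17.4% (95% exact interval 14.2% to 21.0%) and 14.5% (11.2% to 18.3%) of thinned cluster 15 cells in cKO YFP+. In control YFP+ they made up 2% (0.243% to 7.04%) and 5% (1.38% to 12.3%). The intervals cover counting error only, and those of the genotypes did not overlap in batch 1 but did in batch 2. The 4 total libraries had 2.78% to 4.76%. Cluster 4 had 0.712% to 1.94% over the 8 libraries, naive B-like cells had 0% to 1.36%, and GCB-like cells had 0% to 3.23%. The unnamed cluster 14 was as high as cluster 15, with 11.9% and 20.1% in cKO YFP+. It had 8.51% of 47 cells in cKO total replicate 2 and 0% of 22 cells in control total replicate 2.

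**Figure D3:**
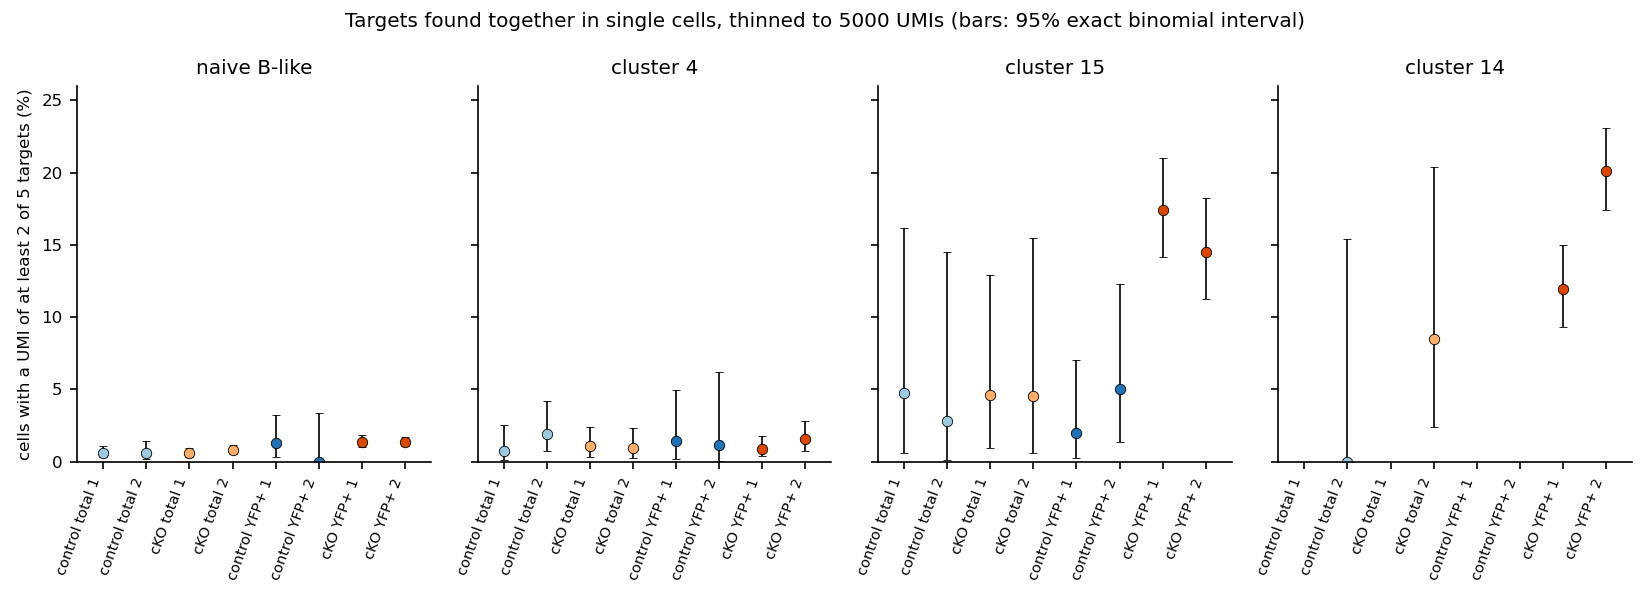
Share of cells, in percent, in which at least 2 of Cdkn1a, Bbc3, Ccng1, Phlda3 and Zmat3 were detected after thinning each cell to 5000 UMIs, with 1 point per library and bars for exact 95% intervals, in naive B-like cells and clusters 4, 15 and 14. The cKO YFP+ libraries of cluster 15 stand at 17.4% and 14.5%, above the 2% and 5% of control YFP+. Those of cluster 14 stand at 11.9% and 20.1%.

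In total cells no member was called between the genotypes in this class. In the pre-GCB-like class 0 of 8 members were called, 1 had an unadjusted p under 0.05, and 0.253% of 10661 genes were called by edgeR. That gene was Cdkn1a, at 6.71 and 6.60 CPM in control total and at 1.96 and 3.35 CPM in cKO total (−1.17 ± 0.40, edgeR adjusted p = 0.562, and 0.0302 with the block, where 6.48% of genes were called). The groups did not overlap. Cdkn1a passed the filter there only through the control libraries, so these values are a description. Ccng1 was at 23.0 and 31.1 CPM in control total and at 25.7 and 36.1 CPM in cKO total (0.24 ± 0.27, edgeR adjusted p = 1).

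When YFP+ cells were compared with total cells of the same genotype, 6 of 9 members were higher in YFP+ pre-GCB-like cells of cKO mice, against 10.9% of 12105 genes called. Phlda3 was at 0.818 and 2.05 CPM in cKO total (3.93 ± 0.32, edgeR adjusted p = 0.00333) and Cdkn1a at the values above (3.54 ± 0.33, edgeR adjusted p = 0.00361). Bbc3 was at 4.25 and 5.39 CPM in cKO total (1.63 ± 0.23, edgeR adjusted p = 0.00953). Ccng1 (1.58 ± 0.20, edgeR adjusted p = 0.00801), Zmat3 (1.59 ± 0.35, edgeR adjusted p = 0.0304) and Bax (0.72 ± 0.17, edgeR adjusted p = 0.0356) were the others. When cells were clustered from an embedding of higher numeric precision, Bax was not called (0.75, edgeR adjusted p = 0.0827). With cluster 14 added Bax was not called either. Total and YFP+ libraries paired by batch, and with that block Mdm2 (0.42, edgeR adjusted p = 0.00212) and Trp53 (0.28, edgeR adjusted p = 0.00989) were higher as well, 8 of 9 members against 42.4% of all genes. Cluster 15, the deeper and cycling part, made up 9.44% of this class in cKO total and 34.6% in cKO YFP+, and the part of that shift in the result was not tested. Within cluster 15, 5 of 9 members were called between the sorts, against 9.64% of 11228 genes: Ccng1 (1.63), Bax (0.91), Bbc3 (2.33), Phlda3 (2.82) and Cdkn1a (2.24). Phlda3 passed the filter there only through the YFP+ libraries, so its value is a description, and 4 of the 8 others were called. With the block the 8 others were called there against 27% of all genes, Zmat3, Trp53 and Mdm2 being higher and Trp53inp1 lower (−0.56).

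In control mice the sort gave 0 of 8 members called in the pre-GCB-like class, with 1 at an unadjusted p under 0.05 and 0.952% of 10402 genes called by edgeR. The nominal one was Zmat3, at 4.65 and 3.77 CPM in control total and at 9.74 and 5.50 CPM in control YFP+ (0.90 ± 0.40, edgeR adjusted p = 0.407, and 0.0473 with the block, where 22.4% of genes were called). In cluster 15 of control mice Cdkn1a was at 18.2 and 19.4 CPM in control total (21 and 18 UMIs) and at 4.90 and 2.79 CPM in control YFP+ (12 and 4 UMIs), a difference of −1.84 ± 0.48 (edgeR adjusted p = 0.0502, and 0.000473 with the block, where 4.42% of genes were called). It passed the filter there only through the control total libraries, so this value is a description. In these control total cells the T cell markers summed to 51.2 to 104 CPM, against 2.79 to 5.30 CPM in control YFP+. Myeloid markers summed to 16.5 to 23.8 CPM there, below the monocyte or macrophage markers given above for control YFP+. Cdkn1a ranged from 2.13 to 19.3 CPM in T cells and from 17.3 to 141 CPM in myeloid cells. The part of T cells and myeloid cells in the Cdkn1a level was not tested.

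Whether the genotype effect differed between sorts was tested as an interaction over all 8 libraries. In the pre-GCB-like class 0 of 9 members and 0 of 11112 genes (0%) were called by edgeR, while 954 genes and 4 members had an unadjusted p under 0.05. The estimates were 3.90 ± 0.57 for Cdkn1a (edgeR adjusted p = 0.116), 3.88 ± 0.94 for Phlda3 (edgeR adjusted p = 0.238) and 1.27 ± 0.33 for Ccng1 (edgeR adjusted p = 0.29). With the block 5 members were called, Cdkn1a, Phlda3, Ccng1, Bbc3 and Bax, against 11.7% of all genes. Phlda3 passed the filter there only through cKO YFP+, which leaves 4 of the 8 others. DESeq2 called 2, against 0.684% of genes, and edgeR with no filter on low counts called 4, against 1.1%. In cluster 15 the interaction was called for 1 of 9 members, Cdkn1a (4.23 ± 0.64, edgeR adjusted p = 0.00899), against 0.796% of 9291 genes. Cdkn1a passed the filter there only through cKO YFP+ and control total, the 2 groups that raise this estimate, so its value is a description. Its call was lost without control total replicate 1 or 2. With the block 4 members were called, against 7.98%. Bbc3, among them, passed the filter only through cKO YFP+, as did Phlda3 among those tested, so this count is a description.

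**Figure D4:**
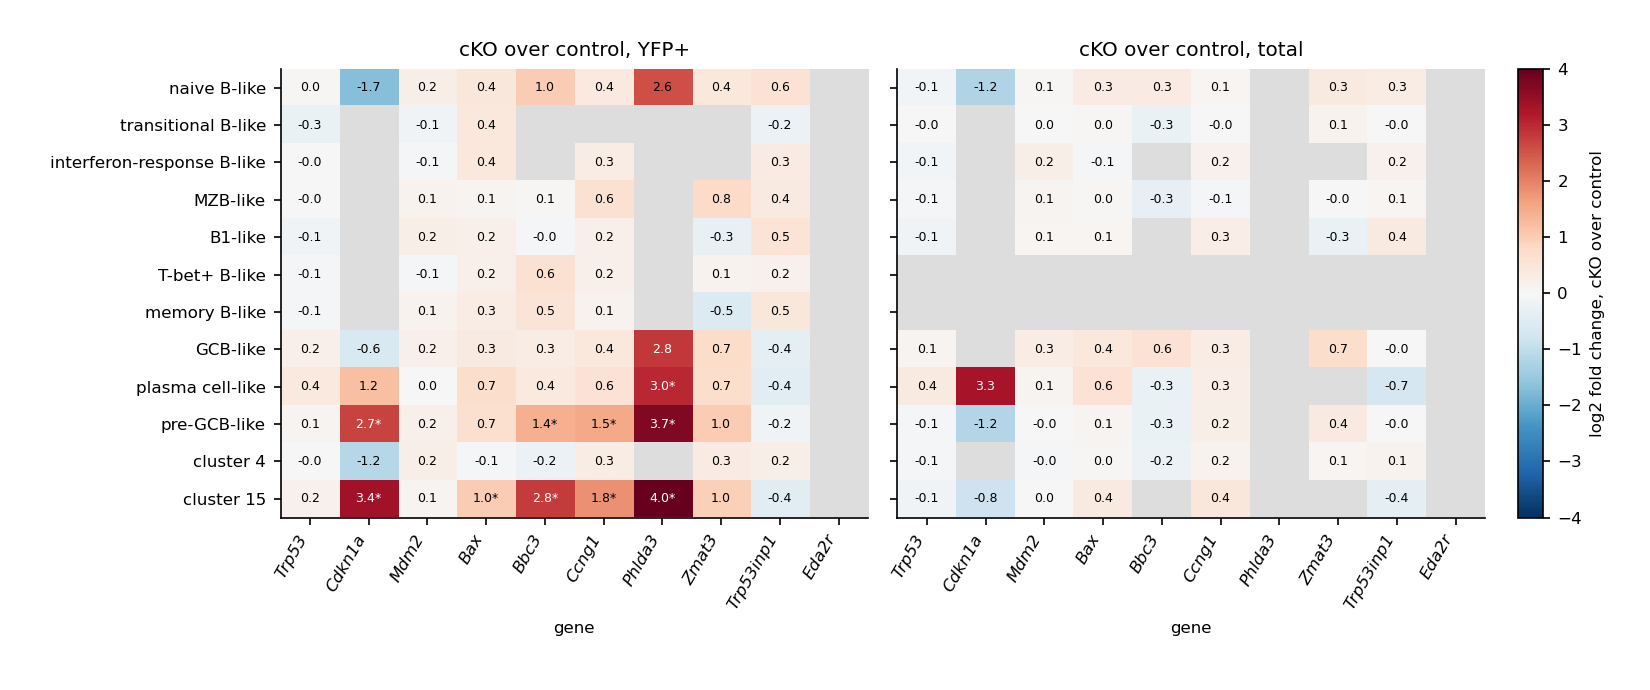
Log2 differences of cKO over control for each member (columns) and B cell class or cluster (rows), in YFP+ cells on the left and total cells on the right, with the color scale in log2 units, called values (edgeR adjusted p under 0.05) starred and untested ones grey. In YFP+ cells the starred values stand in the pre-GCB-like class, in cluster 15 and, for Phlda3, in plasma cell-like cells, where it passed the filter on low counts only through the cKO libraries, and no value is starred in total cells.

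Outside the pre-GCB-like class few members were called without the block. In plasma cell-like cells 1 of 9 was called in YFP+ cells, against 1.17% of 11483 genes: Phlda3 was at 0.608 and 0.588 CPM in control YFP+ and at 5.82 and 6.27 CPM in cKO YFP+ (3.03 ± 0.52, edgeR adjusted p = 0.00331). Phlda3 passed the filter there only through the cKO libraries, so its value is a description, and 0 of the 8 others were called. The Phlda3 call was lost without either control library (edgeR adjusted p = 0.206 and 0.382) and with all 8 libraries in the fit (0.0622). In total plasma cell-like cells Cdkn1a had 0 UMIs in both control libraries (57 and 41 cells) and 12 and 34 UMIs in the cKO libraries (58 and 98 cells), with an edgeR adjusted p of 0.137, and 4.25e-06 with the block. There 0 of 7 members were called by edgeR, 3 being at an unadjusted p under 0.05, against 0.0911% of genes, and 3 with the block against 4.97%, the others being Trp53inp1 (−0.68) and Bax (0.56). Cdkn1a passed the filter there only through the cKO libraries, so its value is a description, which leaves 2 of the 6 others with the block. In GCB-like cells 0 of 9 were called (1.14% of 12165 genes by edgeR, 2 members at an unadjusted p under 0.05). Phlda3 was at 0.0791 and 0.347 CPM in control YFP+ and at 2.91 and 1.48 CPM in cKO YFP+ there (2.84 ± 0.74, edgeR adjusted p = 0.0927, and 0.00107 with the block). It passed the filter only through the cKO libraries, so its value is a description, and with the block 0 of the 8 others were called against 7.66% of genes. Cdkn1a was at 3.88 and 2.54 CPM in control YFP+ and at 2.61 and 1.23 CPM in cKO YFP+ there.

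In naive B-like cells 0 of 9 were called as well (0.542% of 12735 genes by edgeR, 3 members at an unadjusted p under 0.05). This class came mostly from cluster 1 in control (97.5% of total and 86.8% of YFP+ cells) and from clusters 0 and 2 in cKO, so its values compare unlike clusters. Bbc3 was at 3.48 and 5.04 CPM in control YFP+ and at 7.23 and 8.37 CPM in cKO YFP+ (1.01 ± 0.33, edgeR adjusted p = 0.293, and 0.0325 with the block). Cdkn1a was at 1.80 and 5.72 CPM against 1.01 and 0.989 CPM (−1.70 ± 0.57, edgeR adjusted p = 0.288), the opposite sign to the pre-GCB-like class. With the block 3 of 9 members were called here against 10.8% of all genes, Bax, Bbc3 and Trp53inp1, each higher in cKO. In total naive B-like cells 0 of 8 were called by edgeR, 1 being at an unadjusted p under 0.05, against 0.0706% of genes, and 3 with the block against 21.5%, Bax (0.35) and Trp53inp1 (0.31) higher and Cdkn1a (−1.17) lower. In the cKO sort of this class 0 of 9 were called, 2 being at an unadjusted p under 0.05, against 0% of genes by edgeR, and 5 with the block against 25.3%, Bbc3 (1.34), Phlda3 (2.31), Bax (0.39), Ccng1 (0.31) and Trp53 (0.15), each with a positive difference. Phlda3 passed the filter there only through the YFP+ libraries, so its value is a description, which leaves 4 of the 8 others. In other classes no member was called by edgeR in YFP+ cells. The share of all genes called there was 2.31% in B1-like, 0.933% in interferon-response B-like, 0.296% in memory B-like, 0.114% in marginal zone-like (MZB), 0.0463% in T-bet+ B-like and 0% in transitional B-like cells.

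The change in pre-GCB-like YFP+ cells was tested against that in other classes. It was larger than in GCB-like cells for Cdkn1a (3.26 ± 0.43, edgeR adjusted p = 0.000327) and Ccng1 (1.08 ± 0.15, edgeR adjusted p = 0.000516), 2 of 9 members against 5.96% of genes. It was larger than in naive B-like cells for the same genes (Cdkn1a 4.25, edgeR adjusted p = 0.00336, and Ccng1 1.12, edgeR adjusted p = 0.00183) and smaller for Trp53inp1 (−0.71, edgeR adjusted p = 0.046), 3 of 9 against 5.98%. The naive B-like cells of control and cKO came mostly from different clusters, as given above, so that comparison mixes in a difference between clusters. Against plasma cell-like cells the call was for Ccng1 (0.93, edgeR adjusted p = 0.0202), 1 of 9 against 2.26%. For Phlda3 the differences were 0.87, 1.46 and 0.59 in that order and did not pass the test.

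Trp53 and Trp53inp1 differed between B cell classes in opposite directions at some of the ends. Trp53 ranged from 190 to 226 CPM over the 8 libraries in pre-GCB-like cells and from 179 to 216 CPM in GCB-like cells, which overlapped. It ranged from 118 to 147 CPM in naive B-like cells, below both. In plasma cell-like cells Trp53 ranged from 43.1 to 86.7 CPM, below the naive, pre-GCB and GCB-like classes. The lowest library of transitional-like cells (62.1 CPM) lay within that range, and the lowest of T-bet+ B-like cells (24.1 CPM) lay under it. Trp53inp1 stood at 448 to 1030 CPM in plasma cell-like cells, 74.6 to 135 CPM in transitional-like cells, 31.7 to 88.5 CPM in naive B-like cells, 27.6 to 75.2 CPM in GCB-like cells and 17.6 to 37.4 CPM in pre-GCB-like cells. The transitional, naive, GCB and pre-GCB-like ranges overlapped in neighbouring pairs, and the plasma cell-like range stood clear of the 9 other B cell classes. Trp53inp1 was among the 10 leading genes of a plasma cell-like cluster. Mdm2 kept within 45.9 to 98.1 CPM in the naive, pre-GCB, GCB and plasma cell-like classes. Its range in GCB-like cells, 68.7 to 98.1 CPM, overlapped that in plasma cell-like cells (53.7 to 82.7 CPM) and memory-like cells (45.5 to 85.5 CPM). These orders are descriptions of levels of 1 gene at a time, and no test was run on them.

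**Figure D5:**
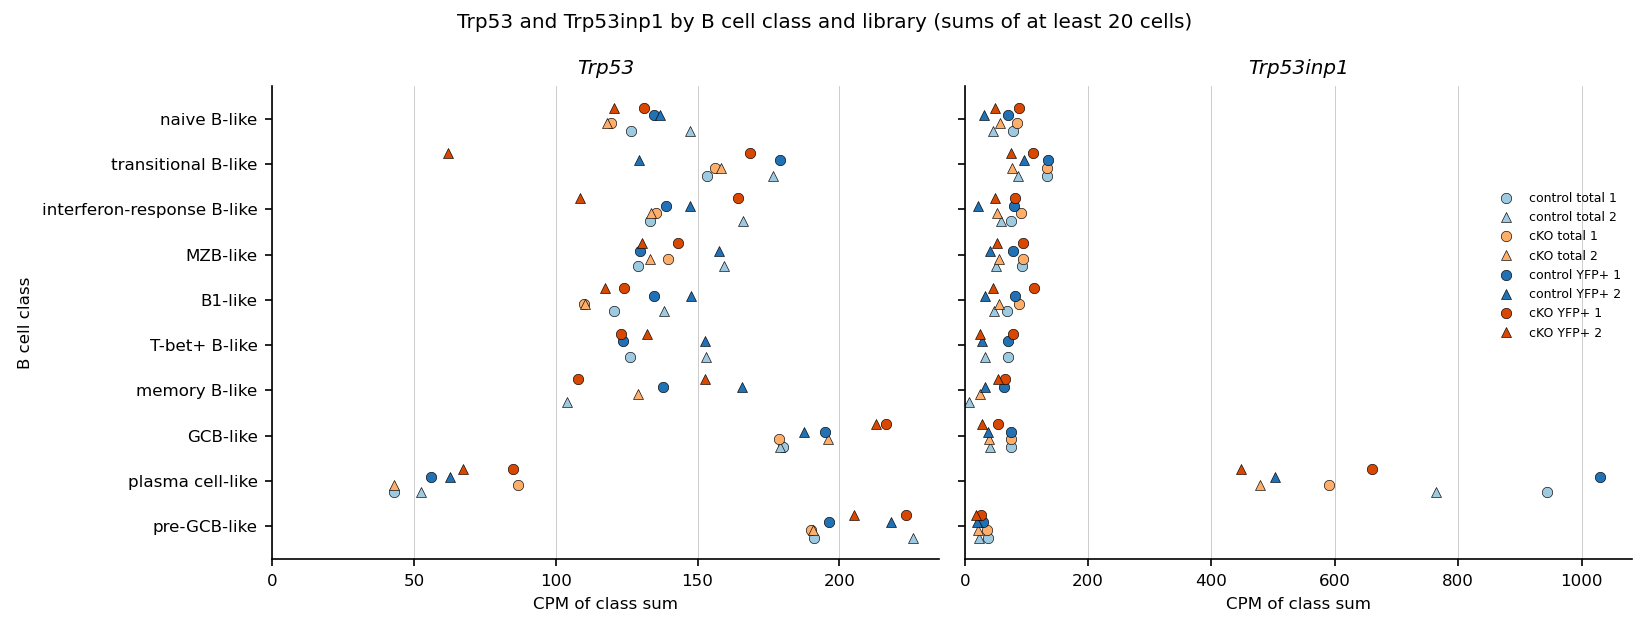
Levels of Trp53 and Trp53inp1 by B cell class, in CPM on linear axes that start at 0, with 1 point per library of at least 20 cells, groups by color and replicates by symbol. Plasma cell-like cells have Trp53 at 43.1 to 86.7 CPM, below the naive, pre-GCB and GCB-like classes, and Trp53inp1 at 448 to 1030 CPM, above every other class.

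Summed over all B-lineage cells of the YFP+ libraries, 5 of 10 members were called, against 7.64% of 16124 genes. Eda2r, among them, passed the filter on low counts only through the cKO libraries, so its value is a description, and 4 of the 9 others were called. Phlda3 (0.342 and 0.469 CPM against 11.1 and 14.9 CPM, log2 difference 4.90 ± 0.37, edgeR adjusted p = 0.00319) and Cdkn1a (2.50 and 3.09 CPM against 11.9 and 21.5 CPM, 2.56 ± 0.38, edgeR adjusted p = 0.012) were higher in cKO. Eda2r, which passed the filter in none of the named classes, had 3 and 1 UMIs in control YFP+ and 27 and 67 UMIs in cKO YFP+ (3.60 ± 0.77, edgeR adjusted p = 0.0175), and Ccng1 was higher by 1.13 ± 0.27 (edgeR adjusted p = 0.048). Trp53inp1 was lower, at 277 and 127 CPM against 80.7 and 46.7 CPM (−1.66 ± 0.39, edgeR adjusted p = 0.0458). With the block Zmat3 (0.79, edgeR adjusted p = 0.0128) and Bbc3 (0.68, edgeR adjusted p = 0.0204) were higher as well, 6 of the 9 members other than Eda2r, against 18.7%. Beside the lower Trp53inp1, plasma cell-like cells made up 10.3% and 9.12% of B-lineage cells in control YFP+, against 1.19% and 0.885% in the cKO libraries. In such sums a change in the share of a cell type and a change in RNA per cell cannot be told apart.

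Of the p53 death targets outside the members, 3 of 8 tested rose in YFP+ pre-GCB-like cells, where 8.79% of all genes were called in either direction (Tnfrsf10b 3.16, Fas 1.34 and Aen 0.78), with a list median of 0.39 against 0.00 for all genes. Fas, the death receptor, was at 35.3 and 46.9 CPM in control YFP+ and at 113 and 87.3 CPM in cKO YFP+. In cluster 15, 4 of 8 rose, against 20.2% of all genes called (Aen 1.84, Tnfrsf10b 3.13, Fas 1.21 and Ei24 0.65; median 0.73). Aen, an apoptosis-enhancing nuclease, was there at 17.1 and 11.9 CPM against 54.5 and 53.3 CPM. Tnfrsf10b, the receptor of TRAIL, was at 1.63 and 0.698 CPM against 14.4 and 11.6 CPM. Tnfrsf10b, among the 4 that rose, passed the filter on low counts there only through the cKO libraries, so its value is a description. Fas was also higher in YFP+ than in total pre-GCB-like cells of both genotypes, by 1.99 in control (edgeR adjusted p = 0.0127) and 2.09 in cKO (edgeR adjusted p = 0.00361), and in total cells of cluster 15 it was higher in cKO by 1.48 (edgeR adjusted p = 0.012).

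Of 8 arrest targets other than the members, 0 rose and 2 fell in both the pre-GCB-like class (8.79% of all genes called) and cluster 15 (20.2%). In cluster 15 that share of the list is near the share of all genes called. The genes that fell were Sesn1 (−0.92 and −1.46), a stress-response inhibitor of mTORC1 signalling, and Sfn (−1.47 and −1.87), the gene of 14-3-3σ. Among the regulators and family, 1 of 14 tested passed in the pre-GCB-like class, a share near the 8.79% of all genes called there. That gene was Hipk2, a kinase that phosphorylates p53, which rose (1.62, 57.5 and 35.9 CPM against 142 and 135 CPM). Hipk2 rose too in cluster 15 (1.52) and in cluster 4 (1.80, edgeR adjusted p = 0.0428). In total pre-GCB-like cells Hipk2 stood at 63.0 and 32.8 CPM in control and at 134 and 127 CPM in cKO, so that the groups did not overlap there either. In cluster 15, 3 of 15 regulators were called, a share near the 20.2% of all genes called there. Hipk2 rose, and Chek2 (−0.91) and Trp73 (−2.28, at most 2.86 CPM) fell. Trp73 passed the filter on low counts (1.33 CPM) there only through the control libraries, so its value is a description. Of 14 repair and metabolism targets, 0 passed in the pre-GCB-like class. In cluster 15, 3 of 14 did, Sco2 (1.02) and Rps27l (0.52) rising and Ddb2 (−0.92) falling. That share of the list too is near the 20.2% of all genes called there. In cluster 4, where 0.775% of all genes were called, Pltp rose (2.72, edgeR adjusted p = 0.0387).

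Cell cycle genes, a list of 26, were measured because Cdkn1a arrests the cycle, but a link between their levels and Cdkn1a was not tested. In cluster 15, 9 fell and 0 rose in cKO YFP+ cells, against 20.2% of all genes called in either direction, among them Plk1 (−1.02), Ccnb2 (−0.90), Aurkb (−0.92), Cenpf (−0.93), Ccnb1 (−0.67) and Foxm1 (−0.68), and the list median was −0.42. The summed level of the list was 5707 to 5838 CPM in control YFP+ and 3919 to 4357 CPM in cKO YFP+. In the pre-GCB-like class 1 of 26 passed, where 8.79% of all genes were called. That gene was Plk1, whose difference was −0.73 as reported (edgeR adjusted p = 0.0301) but 2.14 at cluster resolution 1.5 (edgeR adjusted p = 0.019). In cluster 4, 0 of 20 tested passed, where 0.775% of all genes were called. Of 9 handling-stress genes tested, Nr4a1 fell in the pre-GCB-like class (−0.93) and in cluster 15 (−1.01), and 0 rose. The shares of all genes called were 8.79% and 20.2% in that order. When YFP+ was compared with total in cKO pre-GCB-like cells, 24 of 26 cell cycle genes were higher, where 10.9% of all genes were called, led by Birc5 (1.37), Ccna2 (1.2), Cdc20 (1.65), Tyms (1.31), Mcm3 (1.07) and Tpx2 (1.16), and within cluster 15 alone 0 of 26 were higher and 5 were lower (9.64% of all genes called), while the share of cluster 15 in the class differed as given above. In the whole class 4 of 8 death targets were higher as well (Fas 2.09, Tnfrsf10b 1.76, Siva1 1.07 and Pmaip1 0.77).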

How the data were processed

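The authors deposited UMI counts per gene and cell for 8 libraries (SeekOne DD 3′ single-cell RNA-seq), and the submitters' processing notes name GRCm38 and mm10. The sources used here do not name the aligner. Members and gene lists were chosen with earlier results of these data known. Cells with over 200 UMIs, over 100 genes and at most 10% mitochondrial UMIs were kept. B-lineage cells were clustered (Leiden, igraph 0.11.9, resolution 1, 2000 variable genes, 30 components, 20 neighbours) without the members and pathway genes, and named from marker lists. Leaving out sex-linked genes and the final naming rule followed a first pass. Doublets were marked (8%) and kept. Counts were summed per library and class (at least 20 cells in each library) and tested with edgeR 4.0.16 in R 4.3.3 (TMM, filterByExpr, robust quasi-likelihood F test, prior count 2 for log2 differences, SE from the coefficient without it, Benjamini-Hochberg over all genes tested, threshold 0.05), in the libraries compared. DESeq2 1.42.0 was an alternative. Other steps used Python 3.11.15, numpy 2.4.6, scipy 1.17.1, pandas 2.3.3 and scikit-learn 1.9.0.

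Replicate numbers mark a shared batch in the labels, and same-numbered libraries deviated together (r = 0.161 to 0.750 over naive B-like, pre-GCB-like and GCB-like cells), so values with the replicate as a block are given where they change a call in a comparison the report describes. Of 291 member values with both fits, 64 were called with the block only and 0 without it only. Tests of cluster 4, cluster 15 and their difference were chosen after the clusters were seen. Named genes were the 10 members and, per other list and comparison, up to 6 called genes by adjusted p; genes named beyond these were chosen after their values were seen. With 2 libraries a group, the spread between pools is poorly known. Fits with the block, and those of differences between classes or clusters, leave little replication. Their p-values rest largely on a spread estimated over all genes, and small ones do not measure agreement between pools of mice. Library pairs shared 51 to 102 barcodes, and 0 pairs of replicates agreed within sampling noise. A rerun showed that rounding in the embedding can move clusters, so an embedding in double precision was added as an alternative after seeing the data. Other alternatives were other normalizations, filters, cluster resolutions, doublet removal and leaving out each library. Fitting was tested on simulated counts.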

Additional observations from a re-analysis of the deposited data

Results flagged for a closer look

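The cKO over control difference of several members itself differed between groups of cells by a test of that difference. Between cluster 15 and cluster 4 of YFP+ cells, Cdkn1a differed by 4.72, Phlda3 by 3.59, Bbc3 by 2.92, Ccng1 by 1.57 and Bax by 1.12 on the log2 scale (edgeR adjusted p from 1.64e-11 for Cdkn1a to 0.013 for Phlda3), all larger in cluster 15. The Phlda3 value was 0.88 without control YFP+ replicate 1, and Phlda3 passed the filter on low counts only through cKO YFP+ cells of cluster 15.

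Between pre-GCB-like and GCB-like YFP+ cells the difference was larger in the former for Cdkn1a (3.26) and Ccng1 (1.08). Against naive B-like cells it was larger for Cdkn1a (4.25) and Ccng1 (1.12) and smaller for Trp53inp1 (−0.71). The naive B-like cells of control and cKO came mostly from different clusters, so this comparison mixes in a difference between clusters. Against plasma cell-like cells the difference was larger for Ccng1 (0.93). Between sorts, the Cdkn1a difference in cluster 15 was larger in YFP+ than in total cells by 4.23 (edgeR adjusted p = 0.00899). That call was lost without control total replicate 1 or 2. Cdkn1a passed the filter on low counts there only through cKO YFP+ and control total, so this value is a description.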

How the results depend on the processing

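For 82 pairs of gene and comparison, 1019 values were recomputed under alternatives: 895 kept direction and side of the threshold, 76 fell below it, 35 passed it and 13 changed sign, 1 of these among values called as reported. That one was Plk1 in YFP+ pre-GCB-like cells, 2.14 at resolution 1.5. Of values not called, when 1 library was left out Trp53 ranged from −0.03 to 0.25 and Trp53inp1 from −0.45 to 0.10 (0.07 without cKO YFP+ replicate 2) in YFP+ pre-GCB-like cells. In total cells Bax ranged from −0.15 to 0.44 (−0.03 without cKO total replicate 2), Bbc3 from −0.87 to 0.78 and Ccng1 from −0.06 to 0.52, and in the cKO sort Trp53inp1 ranged from −0.58 to 0.13. Trp53inp1 was 0.03 in YFP+ cells with cluster 14 added and 0.02 in the cKO sort at resolution 1.5, and Bbc3 in total cells was 0.11 at resolution 0.5 and 0.05 with the double-precision embedding. Cluster 14 and that embedding were alternatives chosen after seeing the data. With the embedding, 5 members were called in YFP+ pre-GCB-like cells (10.5% of all genes), with Zmat3 at 1.48 (edgeR adjusted p = 0.00816), and 5 in the cKO sort (5.2%). The count of members called in total pre-GCB-like cells was 1 with the replicate block (Cdkn1a, which passed the filter only through control libraries, against 6.48% of all genes), and for the pre-GCB-like interaction it was 2 by DESeq2 (0.684%), 4 with no filter (1.1%) and 5 with the replicate block (11.7%). For the cluster 15 interaction it was 4 with no filter (1.7%), 4 with the replicate block (7.98%) and 0 to 1 when 1 library was left out (0.0629% to 0.596%). For cluster 15 against cluster 4 it was 3 to 5 when 1 library was left out (5.45% to 11.6%). The causes were not tested. In the cluster 15 interaction Bbc3 and Phlda3 passed the filter on low counts only through cKO YFP+, and Cdkn1a only through cKO YFP+ and control total. In the pre-GCB-like interaction Phlda3 passed only through cKO YFP+. Interaction counts that hold these genes are descriptions. Low counts limit Phlda3, Eda2r and Cdkn1a in control cells.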

Other observations

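Cluster 14, which no marker list named, had Fabp5, Timd2, Tnfsf4, Socs2, Cd80, Cdkn1a and Phlda3 among its 10 leading genes and came mostly from cKO YFP+ libraries (562 and 823 cells, against 15 and 13 in control YFP+), too few control cells for a test. The pre-GCB list scored highest for it (0.85), but the naming rule withheld that name because Cd80, a memory B marker, was among its leading genes. At resolution 0.5 a cluster led by Fabp5 and Timd2, with Socs2, Tnfsf4 and Cdkn1a, was named pre-GCB-like. In cKO YFP+ cluster 14 held Ccng1 at 120 and 170 CPM, Bax at 312 and 398 CPM, Zmat3 at 21.7 and 29.8 CPM and Bbc3 at 22 and 26.7 CPM. Eda2r had 16 and 51 UMIs there. Added to the pre-GCB-like class after seeing the data, it raised the members called in YFP+ cells from 4 of 9 to 5 of 10, with Zmat3 at 1.49 (edgeR adjusted p = 0.0106), against 9.31% of all genes.

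Cdkn2a, a regulator of Mdm2, was in GCB-like cells at 0.826 and 6.5 CPM in control total, 18.4 and 26.1 CPM in cKO total, 2.77 and 7.15 CPM in control YFP+ and 20.4 and 25.9 CPM in cKO YFP+. It was higher in cKO by 2.48 in total cells (edgeR adjusted p = 0.0202) and by 2.19 in YFP+ cells (edgeR adjusted p = 0.0524, and 9.06e-08 with the replicate block). In total cells Cdkn2a passed the filter on low counts (4.04 CPM) only through the cKO libraries, so that value is a description.

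Over 57 sums of at least 100 cells, which share libraries, depth and cell classes, the genes with the most similar pattern among 7989 compared (Pearson's r of log2(CPM + 1)) were Ddx39b for Trp53 (0.89), Eif4enif1 for Mdm2 (0.80), and Atf4 for both Cdkn1a (0.71) and Ccng1 (0.68).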
